A study of Mus musculus with 8 samples.

Results

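Autosomal exonic H3K27ac regions are stretches of chromosomes 1 to 19 that carry acetylated lysine 27 of histone H3 in male mouse germ cells and whose strongest called interval touches an exon away from the promoter. Intervals called in the 2 replicates of a stage were merged, a merged region was retained when both replicates contributed an interval, and it took the genomic class that the deposited list gives to its interval of highest fold enrichment. This rule returned 4213 exonic regions of 52822 autosomal regions, namely 1854 of 26333 in pachytene spermatocytes (PS) and 2359 of 26489 in round spermatids (RS). Exonic regions were thus 7.04% of the PS regions and 8.91% of the RS regions. Joining regions that share at least 1 bp between the stages gave 3259 loci in 2673 genes, of which 1361 loci were present in both stages, 659 in PS alone and 1239 in RS alone.

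H3K27ac was mapped by ChIPmentation, in which a transposase inserts the sequencing adapters into immunoprecipitated chromatin, in PS and RS of wild-type adult C57BL/6 testis, with 2 replicates per stage. RNA was sequenced from PS and RS of adult C57BL/6 mice lacking both *Rnf8* and *Scml2* (*Rnf8;Scml2*-dKO), again with 2 replicates per stage, and the cells of both stages were enriched from testis by sedimentation through a BSA gradient, so each stage is an enriched population and not a pure one. Per the study's methods, a dKO preparation used the testes of a single male. The chromatin comes from wild-type cells and the RNA from dKO cells, and in every statement that sets one beside the other the genotype and the assay cannot be told apart. Fewer cells of a type and less RNA per cell cannot be told apart in these bulk samples either. In the RNA, 20 spermatocyte markers summed to 5470 and 5371 RPKM (a read count divided by the transcript's length and the library's depth) in PS against 3751 and 3780 in RS, and 24 spermatid markers to 1951 and 2572 RPKM in PS against 20396 and 20857 in RS. Of the somatic lists, 8 Leydig cell markers summed to 745 and 555 RPKM in PS against 69.8 and 43.6 in RS, and 9 macrophage and blood markers to 3.70 and 2.93 against 50.1 and 47.1; their part in the RNA results was not tested. The RNA tables still hold 93 and 110 reads of *Rnf8* in PS and 61 and 50 in RS, and 40 and 92 reads of *Scml2* in PS and 44 and 98 in RS, and counts per gene do not show whether a deleted exon is missing.

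H3K27ac is a mark of active promoters and enhancers that is written by the acetyltransferases p300 and CBP and read by bromodomain proteins. During the pachytene stage of meiosis the autosomes are transcribed intensely while the sex chromosomes are silenced, and round spermatids then transcribe the genes that build the acrosome and the flagellum before histones are replaced by protamines. Acetylation over an exon can belong to an enhancer that shares its bases with coding sequence, to the start of an alternative transcript, or to the spread of a domain from a neighbouring element.

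The sequences below show what the exon class holds at the base level. Each is the plus strand of mm10 chromosomes (GRCm38 primary assembly) over 200 bases centred on a summit, with coding bases of curated RefSeq transcripts in capitals, so that the change from capitals to lower case is a splice junction. The first pair comes from loci whose signal changed most between the stages, at chr10:121840805-121841004 in exon 9 of 22 of *Srgap1* and at chr2:91586140-91586339 in exon 26 of 44 of *Ckap5*.
Srgap1: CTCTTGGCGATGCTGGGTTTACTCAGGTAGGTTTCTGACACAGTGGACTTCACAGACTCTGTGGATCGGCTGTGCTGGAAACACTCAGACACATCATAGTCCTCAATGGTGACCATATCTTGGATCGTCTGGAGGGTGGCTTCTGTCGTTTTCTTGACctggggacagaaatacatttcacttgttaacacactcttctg
Ckap5: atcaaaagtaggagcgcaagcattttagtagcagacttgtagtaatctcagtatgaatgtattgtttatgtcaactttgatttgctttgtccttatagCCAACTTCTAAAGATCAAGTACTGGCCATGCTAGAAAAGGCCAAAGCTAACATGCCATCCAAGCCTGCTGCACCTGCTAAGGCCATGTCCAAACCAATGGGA
The next pair comes from regions called in a single stage, the PS region of *Dgkh* at chr14:78578675-78578874 in exon 28 of 30, and the RS region of *Dhx36* at chr3:62494193-62494392.
Dgkh: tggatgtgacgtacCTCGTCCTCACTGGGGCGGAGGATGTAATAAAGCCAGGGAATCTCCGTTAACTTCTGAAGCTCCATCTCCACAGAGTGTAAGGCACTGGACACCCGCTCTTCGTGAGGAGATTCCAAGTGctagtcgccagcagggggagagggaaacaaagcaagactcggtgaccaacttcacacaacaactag
Dhx36: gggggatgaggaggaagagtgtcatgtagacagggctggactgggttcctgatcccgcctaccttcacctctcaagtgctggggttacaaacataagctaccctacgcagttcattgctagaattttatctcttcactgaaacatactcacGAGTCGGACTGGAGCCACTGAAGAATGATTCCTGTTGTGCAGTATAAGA
The last window, at chr11:74838004-74838203 in the strong region of *Mnt* called in both stages, holds no coding base.
Mnt: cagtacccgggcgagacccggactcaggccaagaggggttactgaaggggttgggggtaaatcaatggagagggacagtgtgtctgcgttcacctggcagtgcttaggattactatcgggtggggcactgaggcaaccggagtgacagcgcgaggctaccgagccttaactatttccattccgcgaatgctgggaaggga
In these windows 158 bases of *Srgap1*, 102 of *Ckap5*, 120 of *Dgkh* and 49 of *Dhx36* were coding, and the windows held 4, 1, 8 and 4 CpG dinucleotides in the same order, against 11 in *Mnt*. The summit of *Dhx36* was intronic although its region is of class exon, and that of *Mnt* was intronic as well.

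Placement of the summits showed that the class describes contact with an exon more than a position inside it. Of the intervals of class exon in the 4 libraries, 99.7 to 99.9% touched an exon of the transcript they were assigned to, and none of the intervals of class intron did. The strongest summit lay inside an exon in 49.8% of the PS regions (905 of 1819 with a transcript in the annotation) and in 39.3% of the RS regions (905 of 2304). Coding sequence held 32.4% of the PS summits and 26.3% of the RS summits, 3′ untranslated sequence 14.5% and 11%, and introns 47.0% and 55.6%. Exonic bases made up a median of 262 bases of a PS region, which is 34.8% of its width, and 253 bases of an RS region, or 23.2%. Among the summits inside an exon, 54.1% in PS and 49.7% in RS were in the last exon, and 3.98% and 3.76% in the first.

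The regions were distant from the start of the gene to which they were assigned, but a share lay close to another annotated start. The median distance from the summit to the assigned start was 13.5 kb in PS and 14.9 kb in RS, and the lowest was 1095 bp, since closer intervals are of class promoter. A start of any GENCODE transcript lay within 1000 bp of the summit in 35.1% of the PS exonic regions and 32.6% of the RS exonic regions, against 19.9% and 16.8% of the intronic regions. The kept PS regions had such a start in 38.8% and the lost ones in 28.2%. The *Svop* and *Elfn2* summits lay 277 and 512 bp from such starts, that of *Kif7* 234 bp and that of *Bbx* 57 bp, so the class exon does not exclude the start of another transcript. By chromosome, the exonic share was highest on chromosome 7, with 10.9% in PS and 12.9% in RS, and lowest on chromosome 13 in PS (4.48%) and on chromosome 3 in RS (6.17%).

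The exonic regions of PS were mostly retained in RS. An RS region overlapped 1195 of the 1854 PS exonic regions, a kept share of 64.5% (95% Wilson interval 62.2 to 66.6%, which covers counting error only). The same share was 56.1% for intronic, 53.0% for intergenic, 60.8% for upstream and 86.3% for promoter regions, so exonic regions stood above the other distal classes and below promoters. Of the 659 exonic regions that were not kept, 302 were overlapped by an interval of RS replicate 1 alone and 7 by an interval of RS replicate 2 alone, 11 were overlapped by intervals of both that did not join into a region, and 339 (18.3%, 16.6 to 20.1%) had no RS interval. The libraries differed here. The kept share was 81.3% against RS replicate 1, which holds 74919 intervals, and 63.5% against RS replicate 2, which holds 45863. The gap between those libraries is wider than that between exonic and intronic regions, and the exonic share was above the intronic share against either of them, at 81.3% against 69.7% and at 63.5% against 55.4%. Regions are not replicates, and 2 libraries against 2 cannot reach an exact permutation p under 0.333, so no p is given.

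In the other direction the RS exonic regions were less widely matched. A PS region overlapped 1120 of 2359 (47.5%, 45.5 to 49.5%), against 30.2% of intronic, 42.8% of intergenic, 44.3% of upstream and 93.3% of promoter regions. Of the 1239 gained regions, 137 were overlapped by an interval of PS replicate 1 alone, 227 by one of PS replicate 2 alone and 59 by intervals of both, and 816 (34.6%, 32.7 to 36.5%) had no PS interval. Against the single PS libraries the shares were 55.3% and 59.2%, and they were 38.4% and 43.1% for intronic regions. The number of exonic regions in RS rests on both libraries, since RS replicate 1 alone holds 8022 exonic intervals and RS replicate 2 alone 3718, and 32.6% and 93.1% of these were overlapped by the other replicate. With RS replicate 2 left out, 347 regions were lost and 6389 gained, and with RS replicate 1 left out 2285 were gained. In PS the single libraries hold 2860 and 3599 exonic intervals, of which 75% and 61.5% were overlapped, and leaving out PS replicate 1 or 2 gave 1565 or 1077 lost regions. A stage with a library left out no longer needed an interval from both replicates, while the other stage did.

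**Figure D1:**
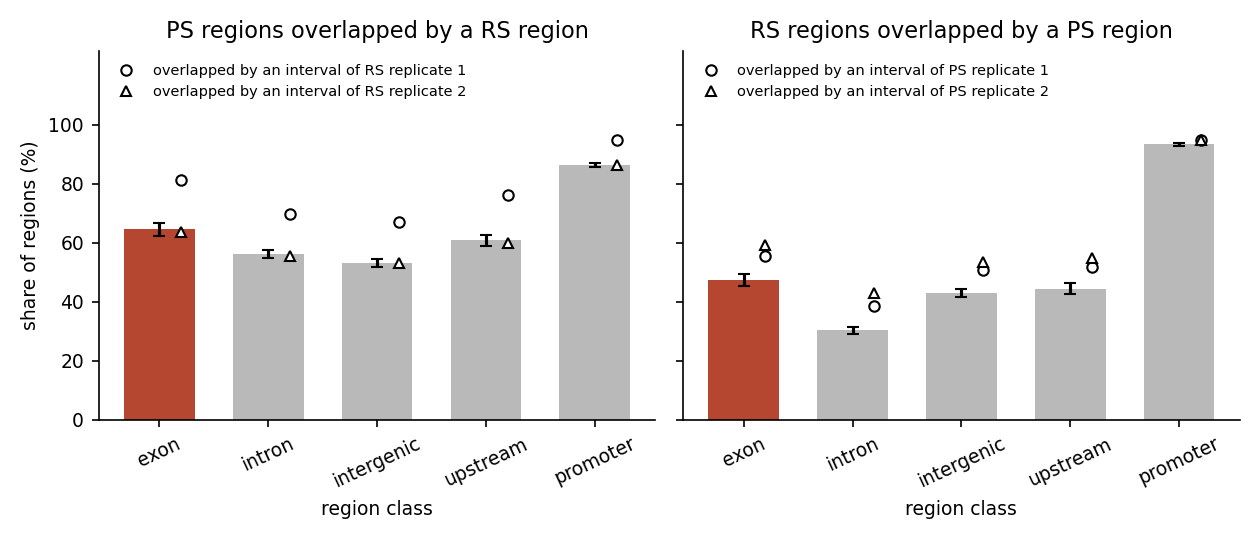
Share of PS regions overlapped by an RS region (left) and of RS regions overlapped by a PS region (right) for each genomic class, in percent. Bars are regions called in both replicates with 95% Wilson intervals, and open circles and triangles are the shares overlapped by an interval of replicate 1 or 2 of the other stage; exonic regions (red) reached 64.5% and 47.5%, between the other distal classes and promoters.

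The relation of retention to strength differed in form between the stages. Fold enrichment is the pileup of fragments at a summit over a constant background of the library, and regions were placed in 4 bins at the quartiles of all autosomal regions of the stage, by the lower value of their 2 replicates. The kept share of PS exonic regions was 61.4, 59.6, 67.4 and 84.5% from the weakest to the strongest bin. In the same bins it was 49.3, 59.2, 91.5 and 99.25% for promoter and 51.9, 59.2, 67.1 and 81.4% for upstream regions. Exonic regions were thus kept more often than promoters in the weakest bin, and were close to upstream regions in the middle bins. The share of RS exonic regions with a PS counterpart was 18.0, 30.0, 64.2 and 99.3%. Of 411 RS exonic regions in the strongest bin only 3 were gained, whereas 27 of 174 PS exonic regions in the strongest bin were not kept. Among regions with no interval at all in the other stage, both replicates reached a fold enrichment of 8 in 39 of 339 in PS (11.5%) and in 9 of 816 in RS (1.1%). Of these regions the lower of the replicate values reached 26.9 in PS, at *Dnajc12*, and 8.71 in RS, at *Dhx36* and other regions named below.

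**Figure D2:**
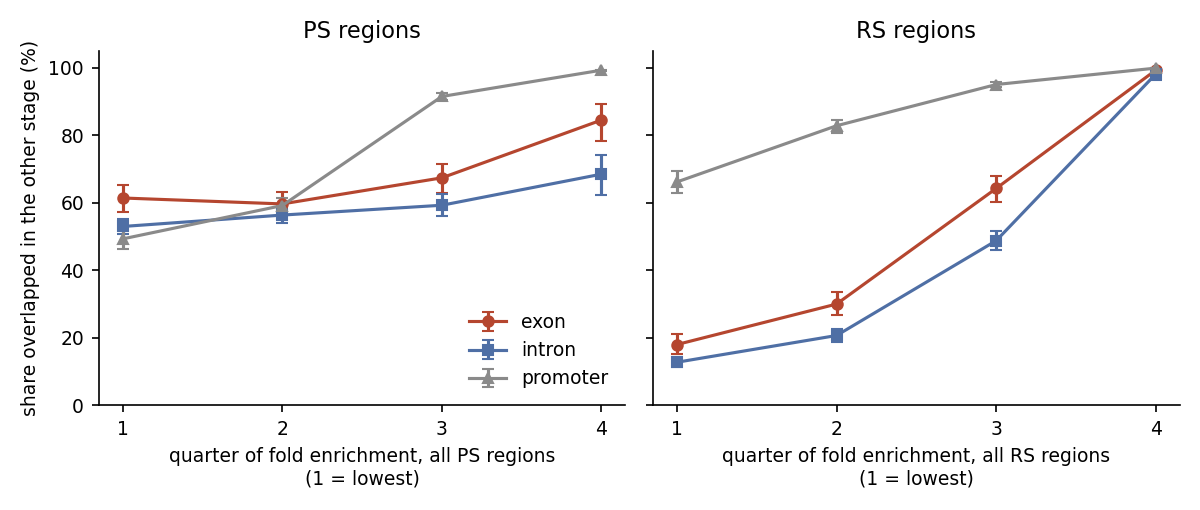
Share of regions overlapped in the other stage, in percent, by quartile bin of fold enrichment among all autosomal regions of the stage, for exonic (circles), intronic (squares) and promoter (triangles) regions, with 95% Wilson intervals. RS exonic regions run from 18.0% to 99.3%, and PS exonic regions from 61.4% to 84.5%.

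Merged exonic regions were wider in RS, as were merged regions of the other classes. The median width was 864.5 bp in PS and 1317 bp in RS. Medians were 605 and 827.5 bp for intronic regions and 1057 and 1383 bp for all regions. The exonic intervals called in single libraries had medians of 383.5 and 321 bp in PS and 323 and 326 bp in RS. RS exonic regions with a PS counterpart had a median of 2224 bp against 870 bp of those gained. The PS regions kept and lost had medians of 994 and 717 bp. The class of a locus could differ between the stages. Of the 1195 kept PS exonic regions, the strongest RS region over them was exonic for 886 (74.1%) and a promoter for 260 (21.8%). Those 260 had a median width of 590 bp in PS and lay under RS promoter regions with a median of 6332 bp. Of the 1120 RS exonic regions with a counterpart, 783 (69.9%) lay over an exonic PS region and 280 (25%) over an intronic one, where the RS region was a median of 2803 bp wide and the PS region 760 bp.

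Base composition differed in part between the lost and the gained regions. In windows of 501 bases at the summit, 14.6% of the lost PS exonic regions were rich in CpG, defined as a GC content of at least 50% and an observed to expected CpG ratio above 0.6, against 2.1% of the gained RS exonic regions (26 of 1239). The kept regions were between these, at 12.4% in PS and 11.4% in RS. The other classes had the same direction, with a CpG-rich window in 2.29% of lost and 0.205% of gained intronic regions. These shares were 4.34% and 0.48% for intergenic, 8.21% and 0.88% for upstream, and 51.1% and 12.3% for promoter regions. Of all PS promoter regions, 66.2% had such a window. The median observed to expected ratio was 0.363 in lost and 0.229 in gained exonic regions, and the median GC content 53.1% and 51.3%. Repeats as soft-masked in the assembly covered a mean of 10.1% of the windows of lost and 11.8% of those of gained regions, against 18.7% and 24.8% in intronic regions.

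Where H3K27ac was present in both stages, the exonic loci more often rose than fell. The strength of 15473 autosomal loci with an interval in all 4 libraries was compared by limma on log2 fold enrichment after centring each library on its median, with Benjamini-Hochberg adjustment over all of them at 0.05. Of the 1361 exonic loci, 708 were higher in RS (52.0%, against 29.1% of all loci), 280 were lower (20.6%, against 34.9%) and 373 passed in neither direction. The median log2 difference of RS from PS was 0.57 over the exonic loci and -0.13 over all loci. Among loci of a single class in both stages, the median was 0.39 for exonic, -0.32 for promoter, 0.85 for intronic and 0.78 for intergenic loci. The median fold enrichment of the exonic loci was 7.82 and 8.22 in PS and 12.6 and 9.87 in RS. Without centring, the medians were 0.47 for exonic and -0.24 for all loci, and 630 exonic loci were higher and 262 lower. In 761 loci whose strongest region was exonic in both stages, 357 were higher (46.9%) and 168 lower (22.1%). A locus entered through an exonic region of either stage, and its value was the highest over all its regions, of any class. The 300 loci with an exonic region in RS and none in PS had 75.3% higher and 8.33% lower (median 1.1). The 257 with one in PS and none in RS had 37.0% higher and 31.9% lower (median 0.04). The differences were not spread evenly, since 436 of the exonic loci (32%) had a log2 difference between 1 and 1.5 while 202 lay between 0.5 and 1 and 208 between 0 and 0.5, and over all loci 16.2% lay between 1 and 1.5. Of the exonic loci 81.2% were wider in RS, beside 68.8% of all loci, 77.4% of intronic and 76.5% of intergenic loci.

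**Figure D3:**
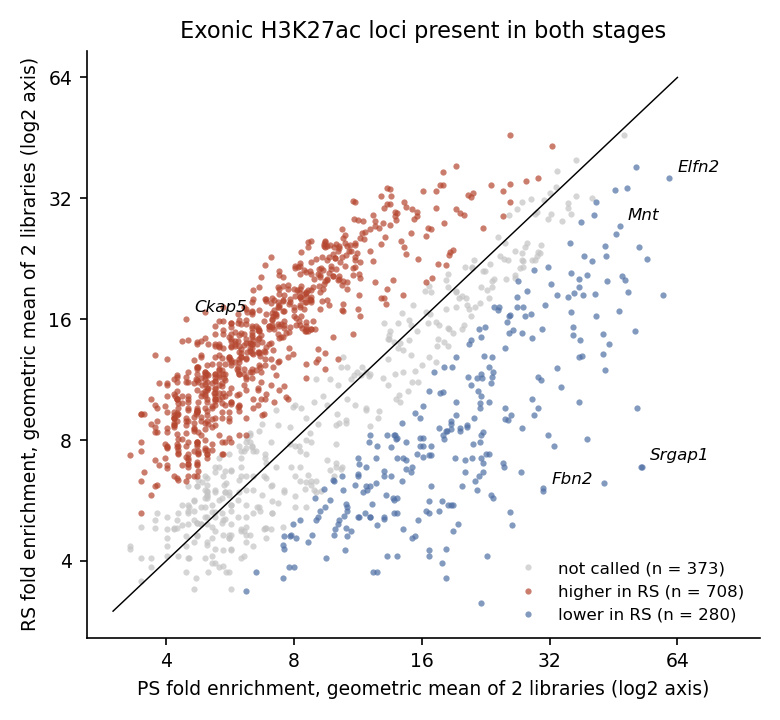
Fold enrichment of the 1361 exonic loci present in both stages, PS on the horizontal and RS on the vertical axis, each the geometric mean of 2 libraries on a log2 axis, with the line of equal values. Loci called higher in RS by limma (708, red) form a band above the line, those called lower (280, blue) spread below it, and 373 (grey) were not called.

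The strongest exonic loci called in both stages, ranked by the lowest fold enrichment of the 4 libraries, were those of *Elfn2*, *Svop*, *Prr14*, *Mnt*, *Pisd-ps1* and *Sfi1*, and *Scamp1*, taken among loci exonic in both stages. *Elfn2*, which encodes a leucine-rich repeat membrane protein that inhibits protein phosphatase 1, had fold enrichments of 57.2 and 65.2 in PS and 37.0 and 34.8 in RS over chr15:78663427-78677461. Its stages did not overlap, and the log2 difference was -0.66 ± 0.12 (SE, limma adjusted p = 2.69e-05). At *Mnt*, a partner of MAX that opposes MYC, the values were 41.6 and 52.6 in PS and 32.1 and 23.2 in RS, over chr11:74835570-74844541. This locus was also lower in RS, with a log2 difference of -0.67 ± 0.13 (SE, limma adjusted p = 4.58e-05). *Svop*, a protein related to synaptic vesicle proteins, had 27.2 and 32.9 in PS and 29.7 and 29.6 in RS. The stages overlapped at *Svop*. *Prr14*, a protein of the nuclear lamina that tethers heterochromatin, had 26.3 and 27.4 in PS and 32.5 and 27.9 in RS, and did not pass the test (limma adjusted p = 0.0756). *Scamp1*, a carrier membrane protein, had 24.3 and 36.2 in PS and 23.6 and 21.5 in RS, and the interval shared by *Pisd-ps1* and *Sfi1* on chromosome 11 had 24.3 and 25.8 against 23.2 and 22.1. Neither of these passed. Of the loci named here, only *Elfn2* had its PS summit in an exon. That of *Prr14* lay outside the transcript, and the others were intronic. *Sfi1*, which encodes a centrin-binding protein, also held the most exonic regions of a gene in PS, 11, and copies of it elsewhere in the genome could take or lose reads.

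Among loci whose strongest region was exonic in both stages, *Srgap1*, *Kif7*, *Fbn2* and *Arhgef15* fell most. *Srgap1*, a protein of the Slit and Robo pathway, had 49.4 and 56.5 in PS and 8.14 and 5.81 in RS over chr10:121838913-121843170, and this is the exon printed first above. Its log2 difference was -2.84 ± 0.15 (SE, limma adjusted p = 6e-14). The PS region there was 4258 bp wide and the RS region 517 bp. *Kif7*, a kinesin of the Hedgehog pathway, had 28.8 and 23.6 in PS and 6.92 and 3.48 in RS. *Fbn2*, an extracellular matrix fibrillin, had 26.8 and 35.6 against 7.73 and 4.64, and *Arhgef15*, a guanine nucleotide exchange factor, 16.5 and 20.3 against 3.25 and 4.06. In these 4 loci every PS value exceeded every RS value, and the log2 differences were between -2.84 and -2.22. The PS summits of *Srgap1* and *Arhgef15* lay in exons, and those of *Kif7* and *Fbn2* in introns.

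Among loci whose strongest region was exonic in both stages, those that rose most had PS values of at most 6.58. *Ckap5*, a microtubule polymerase of the spindle, had 4.53 and 4.38 in PS and 15.9 and 16.3 in RS over chr2:91584089-91587442, a log2 difference of 1.96 ± 0.22 (SE, limma adjusted p = 2.02e-08). The called region there widened from 536 bp in PS to 3354 bp in RS, and the RS summit was intronic. *Prkce*, protein kinase C epsilon, had 4.94 and 4.93 in PS and 15.5 and 18.0 in RS. *Bbx*, an HMG-box protein, had 3.70 and 4.38 against 14.6 and 11, and *Chit1*, a chitinase, 4.53 and 6.58 against 17.5 and 16.8. The stages did not overlap in any of these loci. The PS summits of *Ckap5* and *Bbx* lay in exons, and those of *Prkce* and *Chit1* in introns. The lowest fold enrichment that the lists hold is between 2.85 and 3.48, so these PS values were close to the lowest that could be called.

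Lost regions of high PS signal and no RS interval were led by *Dnajc12*, a J-domain co-chaperone, at chr10:63394992-63396546 with 27.2 and 26.9. *Tmc3*, a transmembrane channel-like protein, had 14.8 and 13.7, and *Dgkh*, diacylglycerol kinase eta, 13.2 in each PS library at the exon printed above. A pair of developmental basic helix-loop-helix factors followed, *Hand1* with 12.8 and 15.9 and *Nhlh1* with 15.2 and 12.1. *Rdm1*, a RAD52 motif protein, had 11.9 and 17.5. Of these lost regions, only *Dgkh* and *Nhlh1* had the summit in an exon. Those of *Dnajc12* and *Tmc3* were intronic, and those of *Hand1* and *Rdm1* lay outside the transcript. Gained regions with no PS interval were weaker. *Dhx36*, a helicase that unwinds G-quadruplexes, had 13.4 and 8.71 in RS at chr3:62493278-62495200, and *Lrrc23*, a radial spoke protein of the flagellum, 10.2 and 8.71. *Sectm1a*, a secreted and transmembrane protein, and *Hfm1*, a helicase of meiotic crossover formation, both had 9.76 and 8.71, *Dusp22*, a phosphatase, 9.36 and 8.71, and *Cyb5d1*, a cytochrome b5 domain protein, 8.54 and 8.71. The repeated value 8.71 stands for the same number of fragments in RS replicate 2, so the order of these regions rests on RS replicate 1. The summits of these gained regions were intronic, except that the transcript assigned to *Lrrc23* was not in the annotation. Absence from a list means a signal below the calling threshold and not the absence of the mark.

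**Figure D4:**
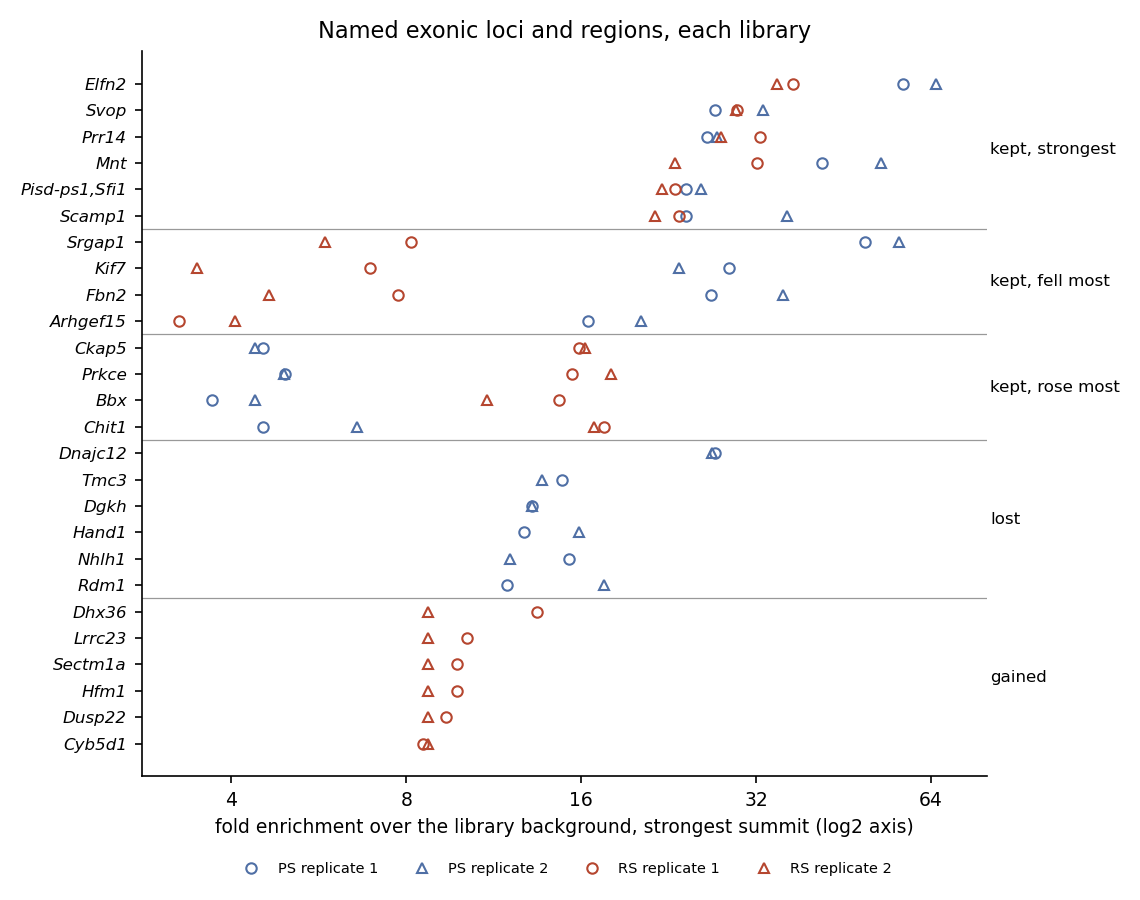
Fold enrichment over the library background of the 26 named exonic loci and regions (log2 axis), with PS libraries in blue and RS libraries in red, and circles and triangles for replicates 1 and 2. Loci that fell most have all PS points to the right of the RS points, those that rose most the reverse, and lost and gained regions have points of a single stage.

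Genes with exonic regions had higher RNA levels in the dKO cells than the median autosomal gene, and among them the genes of lost regions had the lowest. Of the 2673 genes, 2630 were matched to the RNA tables by symbol. Their median level was 5.65 and 6.00 RPKM in PS and 6.13 and 6.44 RPKM in RS, against 0.944 and 0.878 in PS and 1.20 and 1.24 in RS for 22253 autosomal genes. The 821 genes whose exonic loci were all gained had medians of 8.36 and 9.11 RPKM in PS and 10.0 and 10.4 in RS, and the 1015 genes whose exonic loci were all kept 6.74 and 7.35 in PS and 6.90 and 7.41 in RS. For the 526 genes whose exonic loci were all lost the medians were 1.88 and 2.1 in PS and 1.42 and 1.52 in RS, lower than the kept or gained genes in every library. A level of 1 RPKM or more was reached by 57.0 to 60.1% of the genes with lost loci and by 75.2 to 85.4% of those with gained loci.

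RNA of RS and PS of the dKO was compared by edgeR's quasi-likelihood test, and genes that passed both an adjusted p of 0.05 and a 1.5-fold limit are called higher or lower in RS. Over all 14647 genes tested, 30.4% were higher and 27.6% lower. Of 1009 tested genes with a gained exonic region, 390 were higher in RS (38.7%) and 232 lower (23.0%), with a median log2 fold change of 0.19. Of 526 tested genes with a lost exonic region, 115 were higher (21.9%) and 165 lower (31.4%), with a median of -0.09. Of 1188 tested genes with a kept locus, 419 were higher (35.3%) and 297 lower (25%), with a median of 0.13. The median of all genes tested was 0.01. When only genes with a single kind of locus were counted, the shares were 40.1% higher and 23.5% lower for gained, and 20.5% higher and 31.7% lower for lost. These shares are descriptions over genes, which are not replicates, and they were not compared by a test. Genes of gained intronic regions had shares close to those of gained exonic regions, 39.6% higher and 22.4% lower, while genes of gained promoter regions had 66.5% higher and 9.38% lower.

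**Figure D5:**
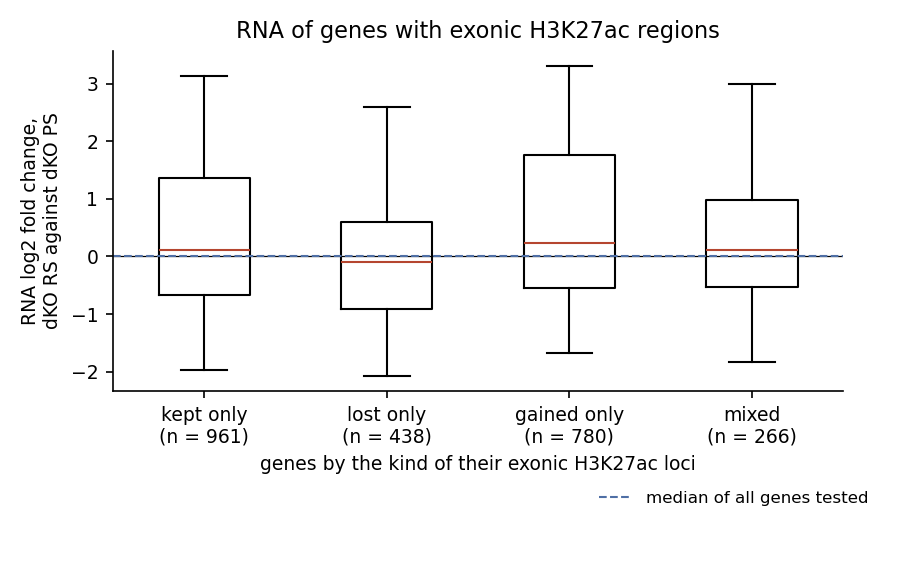
RNA log2 fold change of dKO RS against dKO PS (edgeR) for genes whose exonic loci were all kept, all lost or all gained, or of mixed kinds. Boxes are quartiles with the median in red, whiskers the 5th and 95th percentiles, and the dashed line the median of all genes tested; the medians were 0.12, -0.09, 0.23 and 0.11.

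The direction of H3K27ac in wild-type cells and of RNA in dKO cells were set side by side for the loci whose strongest region was exonic in both stages. Of 338 tested genes whose locus rose, 163 were higher in RS (48.2%) and 56 lower (16.6%), with a median log2 fold change of 0.58. Of 148 tested genes whose locus fell, 13 were higher (8.78%) and 64 lower (43.2%), with a median of -0.54. Genes of loci that did not pass had 28.2% higher and 26.7% lower. Intronic loci had 47.6% higher where they rose and 33.3% lower where they fell, and promoter loci 77.6% higher and 43.9% lower. The number of genes differs from that of loci because a gene can hold several. Single genes had opposite directions. The RNA of *Srgap1*, whose exon 9 lost most signal, was 0.33 and 0.501 RPKM in PS and 2.90 and 2.65 in RS, and it rose by 2.82 ± 0.26 (log2, SE, edgeR adjusted p = 3.2e-05). *Dgkh*, whose exonic region was lost, had 7.07 and 9.08 RPKM in PS and 67.4 and 63.7 in RS, a rise of 3.06 ± 0.17 (log2, SE, edgeR adjusted p = 3.75e-06). *Fbn2* and *Arhgef15* fell in both measures, *Fbn2* from 15.6 and 17.0 RPKM in PS to 1.38 and 1.32 in RS. *Bbx* and *Chit1* rose in both, *Bbx* from 4.57 and 5.68 RPKM to 39.4 and 33.1, while *Ckap5* had 28.7 and 23.1 RPKM in PS and 24.1 and 22.7 in RS, with overlapping stages (edgeR adjusted p = 0.523). *Srgap1*, *Fbn2*, *Arhgef15*, *Chit1* and *Ckap5* also held exonic loci called in a single stage. Their RNA is set here beside the named locus alone.

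Among the other named regions, the RNA of *Elfn2*, *Svop* and *Prr14*, whose loci were called in both stages, fell. That of *Prr14* went from 31.9 and 37.5 RPKM in PS to 11 and 14.3 in RS, and that of *Scamp1* rose from 9.42 and 9.96 RPKM to 39.9 and 30.6. *Svop* did not pass without RS replicate 1, where its log2 fold change was -0.53. *Mnt* did not pass, with 8.88 and 10.4 RPKM in PS and 9.79 and 14.4 in RS. *Dnajc12* had 22 and 34 reads in PS and 10 and 12 in RS, a log2 fold change of -1.49 ± 0.44 (SE, edgeR adjusted p = 0.0171) that did not pass under DESeq2 or without PS replicate 2 or either RS replicate. *Tmc3*, *Hand1* and *Rdm1* had at most 18 reads in a library and did not pass, and *Nhlh1* was not tested at 4 to 14 reads. Of the gained genes, *Hfm1* fell from 18.6 and 13.3 RPKM in PS to 6.26 and 7.43 in RS, and *Lrrc23* from 149.8 and 172 to 87.7 and 86.8, although both had an exonic region in RS alone. *Cyb5d1* rose from 2.29 and 2.94 RPKM to 6.06 and 6.54, and *Sectm1a* rose from 0 and 7 reads to 18 and 30. *Dhx36* and *Dusp22* did not pass, nor did *Kif7* and *Prkce* among the loci that changed most.

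The largest rises of RNA among genes with an exonic region and at least 3 RPKM in a stage were in *Speer5-ps1*, *C1qb*, *Ubqlnl*, *Ttc24* and *Oxct2a*. *Ubqlnl*, a ubiquilin-like gene, had 4.58 and 6.54 RPKM in PS and 132 and 129 in RS, with a gained region inside its coding sequence of 3.66 and 5.81 fold enrichment. *Oxct2a*, a ketone body enzyme of spermatids, had 2.43 and 4.69 RPKM against 67.9 and 61.2, also with a gained coding region, of 5.70 and 4.64. *Ttc24*, a tetratricopeptide repeat gene, went from 0.936 and 1.96 RPKM to 25.7 and 29.6 with a kept region. *C1qb*, a complement gene of macrophages, had 0.331 and 0.509 RPKM against 11.3 and 11.8, in the direction of the macrophage and blood markers given above, while the region assigned to it had 24.3 and 18.1 in PS and 8.95 and 5.81 in RS and a summit outside the transcript. The pseudogene *Speer5-ps1* had 0 and 2 reads in PS and 53 and 63 in RS, and near-identical copies of it could share its reads.

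The largest falls were in *Gm21269*, *4921525O09Rik*, *Piwil1*, *Gm6567* and *4931408D14Rik*. *Piwil1*, the PIWI protein MIWI that binds pachytene piRNAs, had 286 and 326 RPKM in PS and 9.91 and 17.6 in RS, and fell by 4.45 on the log2 scale. Its regions were of class exon in RS alone, with 6.51 and 5.81 at chr5:128740150-128742227. The exonic summits of the other genes lay in noncoding exons, apart from the intronic RS summit of *Gm21269*. *Gm21269* had 88.3 and 99.3 RPKM in PS and 1.67 and 2.68 in RS, *Gm6567* 69.7 and 73.5 against 3.35 and 4.38, and *4931408D14Rik* 92.0 and 98.2 against 4.75 and 7.12. Their RNA fell while the fold enrichment of both RS libraries was above that of both PS libraries. The region of *Gm6567* had 8.64 and 8.77 in PS under an RS region of 23.2 and 22.1, that of *Gm21269* 4.12 and 4.93 under one of 7.32 and 5.81, and that of *4931408D14Rik* 7.32 and 5.81 in RS over 4.53 and 4.93 in PS. *4921525O09Rik* had 35.8 and 34.4 RPKM in PS and 0.808 and 1.14 in RS.

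Gene lists showed where exonic regions are frequent. Of 22253 autosomal genes in the RNA tables, 11.8% had an exonic region. This share was 43.8% for cytoskeleton and cilium genes (21 of 48) and 32.5% for chromatin regulators (25 of 77), and lower for ribosomal protein genes (4 of 91, 4.40%) and clustered histone genes (1 of 67, 1.49%). These lists differ in the length and exon number of their genes, and the part of length was not tested. Among the 21 cilium and cytoskeleton genes, 10 fell in RNA and 6 rose, beside 15 and 17 of the 47 tested on the whole list. The axonemal dynein heavy chains *Dnah1*, *Dnah2*, *Dnah7a*, *Dnah8* and *Dnah17* were among those that fell, *Dnah8* from a mean of 656 RPKM in PS to 210 in RS, whereas *Kif17*, a kinesin of spermatids and cilia, rose from 16.2 to 136. Among 25 chromatin regulators 6 rose and 7 fell, beside 17 and 29 of the 76 tested on the list, with the histone methyltransferase *Kmt2d* falling from 9.61 to 1.15 RPKM and the Polycomb gene *Bmi1* rising from 12.8 to 31.0.

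Spermiogenesis genes with an exonic region numbered 11 of 50, of which 7 rose and the other 4 did not pass, beside 37 that rose and 1 that fell among the 50 genes of the list. Their loci were kept in 6, gained in 4 and of mixed kinds in 1, and in no case lost alone. Of all 2630 genes with an exonic region, 1015 had kept, 821 gained and 526 lost loci alone, and 268 had mixed kinds. *Oaz3*, the antizyme of spermatids, rose from a mean of 94.6 RPKM in PS to 1203 in RS with a gained region, and *Odf3*, a protein of the sperm tail, from 23.8 to 169 with a kept one. Of the 4 that did not pass, *Acr*, the acrosomal protease, had means of 116 RPKM in PS and 145 in RS. Meiotic prophase genes with an exonic region were 7 of 35. *Rec8*, the meiotic cohesin, rose from 8.60 to 53.6 RPKM with a gained region, *Hfm1* fell, and the other 5 did not pass; on the whole list 6 of 35 rose and 12 fell. Of the markers of other testis cells, an exonic region was found for 0 of 8 for Leydig cells, 0 of 9 for peritubular and endothelial cells and 0 of 8 autosomal macrophage and blood markers. The Sertoli cell genes *Sox9* and *Dhh* (2 of 13) and the spermatogonial gene *Zbtb16* (1 of 15) had lost regions, and 2 of 20 spermatocyte and 4 of 24 spermatid markers had an exonic region.

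Gene families, taken by their symbols, ranged widely. An exonic region was found for 7 of 33 ubiquitin pathway genes, of which 3 rose and 1 fell in RNA beside 12 and 8 of the 32 tested on the list. It was found for 51 of 417 zinc finger genes (12.2%, close to the 11.8% of all genes), of which 12 rose and 18 fell beside 62 and 142 of 348. The zinc finger genes had 15 lost-only and 13 gained-only members, beside 526 and 821 of all 2630 genes with an exonic region. Of 197 homeobox and other developmental factor genes 20 had a region, with 8 rising and 4 falling beside 38 and 16 of 89. Of 95 RNA-binding and splicing genes 12 had one, with 1 rising and 7 falling beside 9 and 55 of 94, and the median log2 fold change was -0.85 in the 12 and -0.91 in the family. The *Spata* and *Tex* genes, many of them expressed in spermatids, had 10 of 49, and 7 of these had gained regions alone. Gained-only genes were 821 of the 2630 with an exonic region. In RNA 6 of the 10 rose while 4 did not pass, beside 29 that rose and 6 that fell of 48. The *Ccdc* coiled-coil genes had 27 of 143, with 10 rising and 7 falling beside 38 and 33 of 131. Of 91 ribosomal protein genes 4 had a region, with 1 rising and 1 falling beside 3 and 22 of 84. A region was found for 1 of 561 microRNA genes and for 191 of 2806 gene models named *Gm* or *Rik* (6.81%), of which 75 rose and 41 fell beside 617 and 300 of 1363.

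The promoters of the genes were acetylated in part. Of 1599 genes with a PS exonic region, 53.2% had a promoter region of the same gene in PS and 43.7% had no promoter region in either stage. The share with a promoter region in RS was 40.9% for the genes of lost exonic regions and 55.9% for those of gained ones, and in PS it was 49.3% and 59.7%. The share with none in either was 48.6% for lost and 37.7% for gained. Genes of intronic regions had the same direction. An RS promoter region was held by 45.3% for lost and 55.4% for gained, and none in either stage by 44.1% and 38.1%.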

How the data were processed

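H3K27ac intervals were called by the authors with MACS2 2.1.0.20140616 on unique Bowtie 1.1.1 alignments to mm10, without an input (versions from the submitters' processing notes; the methods name earlier releases of both). The deposited lists give fold enrichment (a ratio to 1 constant background per library), the pileup signal, and −log10 p-values and q-values. The deposited RNA tables, from STAR 2.4.2a alignments, hold estimated counts, given as whole numbers, and RPKM for each isoform row. Both were summed over the rows of a gene. ChIP read totals are unknown, while RNA libraries held 9655405 to 12289694 reads on genes. Columns of per-sample values left unused numbered 0.

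Intervals overlapping by at least 1 bp were merged in Python 3.11.15. Strength was compared with limma 3.58.1. RNA was tested with edgeR 4.0.16 (R 4.3.3, at least 10 counts in 2 libraries), with DESeq2 1.42.0 as an alternative; scripts were tested on simulated data. The labels do not tie replicates to separate animals, while the paper describes the replicates of both assays as biological. The p-values measure the spread between the 2 samples of each stage. Both limma and edgeR moderate this spread by that of all loci or genes tested. MAnorm, used in the study, needs reads and was not run. Members, gene lists and markers were chosen with earlier results of these data known. Named regions were the 6 strongest kept, lost and gained, the 4 loci exonic in both stages with the largest rise and fall, and the 5 genes with the largest RNA rise and fall at 3 RPKM or more.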

Additional observations from a re-analysis of the deposited data

How the results depend on the processing

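The numbers of regions depended on how replicates were combined. At a −log10 q of at least 5, 1060 exonic regions remained in PS and 1241 in RS, with 621 gained; with the union of replicates there were 3955 and 8019, with 1171 lost, 5636 gained and 29.7% of RS regions overlapped. Leaving out 1 library in turn gave 1854 to 3599 PS regions, 2359 to 8022 RS regions, 347 to 1565 lost, 962 to 6389 gained and 20.4 to 59.2% of RS regions overlapped; without RS replicate 2, 347 were lost and 6389 gained. The kept PS share ranged from 56.5 to 81.3% over the single libraries left out and was 55% at the stricter q. Lost regions outnumbered gained ones without PS replicate 1 (1565 against 962) and, narrowly, without PS replicate 2 (1077 against 1054). Leaving out either PS library thus reversed the order reported. With a library left out, the regions of its stage were those of the other replicate alone, while the other stage still needed both replicates. The stage with a library left out therefore holds more regions by rule, so these counts do not compare the stages on equal terms.

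The labels state no pairing between replicates of the stages, and the methods say that PS and RS could be purified from the same dKO male without tying this to the numbers. With 2 pairs, deviations from stage means correlated at 0.225 in RNA and 0.00572 in H3K27ac. With replicates paired by number (replicate block), regions were those of single libraries. The mean counts were then 3230 PS regions, 5870 RS regions, 1174 lost and 4018 gained. The block gave 707 loci higher and 280 lower, and RNA counts within 1.5 times those reported.

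Alternatives chosen after seeing the data were as follows. With the strongest summit inside an exon, there were 905 regions in PS and 905 in RS, 341 lost and 525 gained. RNA was higher and lower for 198 and 148 of 578 tested genes of kept regions (34.3% and 25.6%). The numbers were 63 and 93 of 268 for lost regions (23.5% and 34.7%) and 171 and 107 of 449 for gained ones (38.1% and 23.8%). Over all genes tested the shares were 30.4% and 27.6%. With no interval in either library of the other stage, 339 were lost and 816 gained. RNA was then higher and lower for 61 and 79 of 262 genes of lost regions (23.3% and 30.2%). For gained regions it was higher and lower for 270 and 153 of 686 genes (39.4% and 22.3%). With the strongest region exonic in both stages, 357 loci were higher and 168 lower, with a median of 0.39. Among the alternatives that were part of the design, the median of 0.57 over all 1361 loci became 0.47 without centring, 0.61 on the pileup and 0.61 at a fold enrichment of at least 4. No difference that passed its test changed sign, but among values that did not pass, the H3K27ac differences of *Svop* and of *Pisd-ps1* and *Sfi1* and the RNA differences of *Ckap5*, *Prkce* and *Scml2* did, *Prkce* from -0.44 to 0.17 without RS replicate 1. Of the named loci, 107 values stayed on their side of the threshold and 2 newly passed; of the named genes' RNA, 271 stayed, 2 newly passed and 7 no longer passed. The causes were not tested. ChIP depth is unknown, so a missing interval is a signal below the calling threshold.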
